A study of Mus musculus with 8 samples.

Results

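Transcripts of 8 genes of the WNT and R-spondin system were followed in mouse adrenal glands that lacked or carried Siah1a, with or without an injection of adrenocorticotropic hormone (ACTH). The 8 genes were taken by symbol, Wnt4, Rspo3, Rspo1, Lgr4, Znrf3, Ctnnb1, Lef1 and Axin2, out of 18846 genes in the deposited tables, and all 8 passed the filter on low counts that 15361 genes passed. The libraries came from 4 groups of 2 animals, each group with 1 animal labelled male and 1 labelled female, and each library is titled for a different animal. The labels do not say whether 1 or both adrenal glands of an animal were used, and each library is called a gland below. The groups were Siah1a-/- mice given ACTH, untreated Siah1a-/- mice, wild-type mice given ACTH and untreated wild-type mice. All were of the strain labelled 129SVEV, no age is given, and ACTH was given intraperitoneally at 100 µg/kg for 1 hour. Siah1a encodes an E3 ubiquitin ligase, and ACTH is the pituitary peptide that drives glucocorticoid synthesis. No vehicle injection is among the groups, so the hormone and the injection itself cannot be told apart.

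WNT ligands signal through Frizzled and LRP receptors and keep β-catenin from being degraded, so that it can act with TCF and LEF factors on target genes. R-spondins, bound by LGR receptors, take the ubiquitin ligases ZNRF3 and RNF43 off the cell surface and so leave more Frizzled in place. In the adrenal gland, R-spondin 3 is made by the capsule, WNT4 is made by the outer cortex, and the signal is known for its part in keeping the zona glomerulosa, the layer that makes aldosterone.

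Estimated counts per library ranged from 8020111 to 29568950. Siah1a itself was still counted in the knockout glands, at 19.0 and 17.4 CPM after ACTH and 25.2 and 21.2 CPM untreated, against 33.1 and 32.4 CPM in wild-type glands after ACTH and 26.3 and 26.1 CPM untreated (labelled male first; CPM are counts scaled to a common library total with TMM factors). Its log2 fold change in knockout glands was -0.52 ± 0.23 (SE, adjusted p = 0.383, edgeR), and the labels do not say which part of the gene is deleted. All 6 markers of the adrenal cortex were present in every library. In 1 library, labelled untreated wild-type male, Xist stood at 388 CPM and Kdm5d, Uty and Eif2s3y of the Y chromosome had no counts, which goes against its label. It also held all 6 kidney markers (1380 CPM together, against at most 12.1 CPM in any other library) and is called the kidney-marked wild-type library below. The wild-type gland labelled female that was given ACTH had 51790 CPM of 5 liver markers, against at most 545 CPM elsewhere, and is called the liver-marked wild-type library. Of the knockout glands given ACTH, the one labelled male had the highest sum of 4 neuronal markers, 374 CPM, where the remaining 7 libraries had 9.76 to 37.8 CPM.

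Per transcript length the 8 genes spanned a wide range of levels. By median RPKM over the 8 libraries, summed over each gene's transcripts, Ctnnb1 stood at 256, Lgr4 at 64.5, Wnt4 at 21.3, Rspo3 at 8.83, Znrf3 at 4.22, Axin2 at 3.93, Lef1 at 2.39 and Rspo1 at 0.842. The lowest Ctnnb1 value, 190 RPKM, lay above the highest of Lgr4, 75.5 RPKM, and the lowest of Lgr4, 49.1 RPKM, lay above the highest of Wnt4, 45.4 RPKM. From Wnt4 downwards the range of each gene over the libraries overlapped that of the next gene in the order. Within single libraries, Wnt4 was nevertheless above Rspo3 in 8 of 8 and Lef1 above Rspo1 in 8 of 8. Rspo3 was above Znrf3 in 7 of 8, Axin2 above Lef1 in 6 of 8 and Znrf3 above Axin2 in 5 of 8.

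No member passed the threshold in any of the 7 comparisons tested. In the average over treatments of Siah1a-/- against wild-type glands, edgeR's quasi-likelihood test called 0 of 8 members at a Benjamini-Hochberg adjusted p under 0.05, where it called 4 of 15361 genes (0.026%). DESeq2 called 0 of 8 as well, where it called 928 genes (6.04%), and limma-voom called none. At an unadjusted p under 0.05 stood 0 of 8 members and 2065 of all genes (13.4%). The median log2 fold change of the 8 members was 0.11, with 5 above 0, and that of all genes was -0.04. In the average over genotypes of ACTH against untreated glands, edgeR called 0 of 8 members and 3 genes in all (0.0195%), and 0 members and 938 of all genes (6.11%) were at an unadjusted p under 0.05. For every member the knockout range overlapped the wild-type range, and the ACTH range overlapped the untreated range. Over all 15361 genes the ranges did not overlap for 8.92% between genotypes and for 3.89% between treatments. In such tissue libraries, fewer cells of a type and less RNA per cell cannot be told apart.

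**Figure D1:**
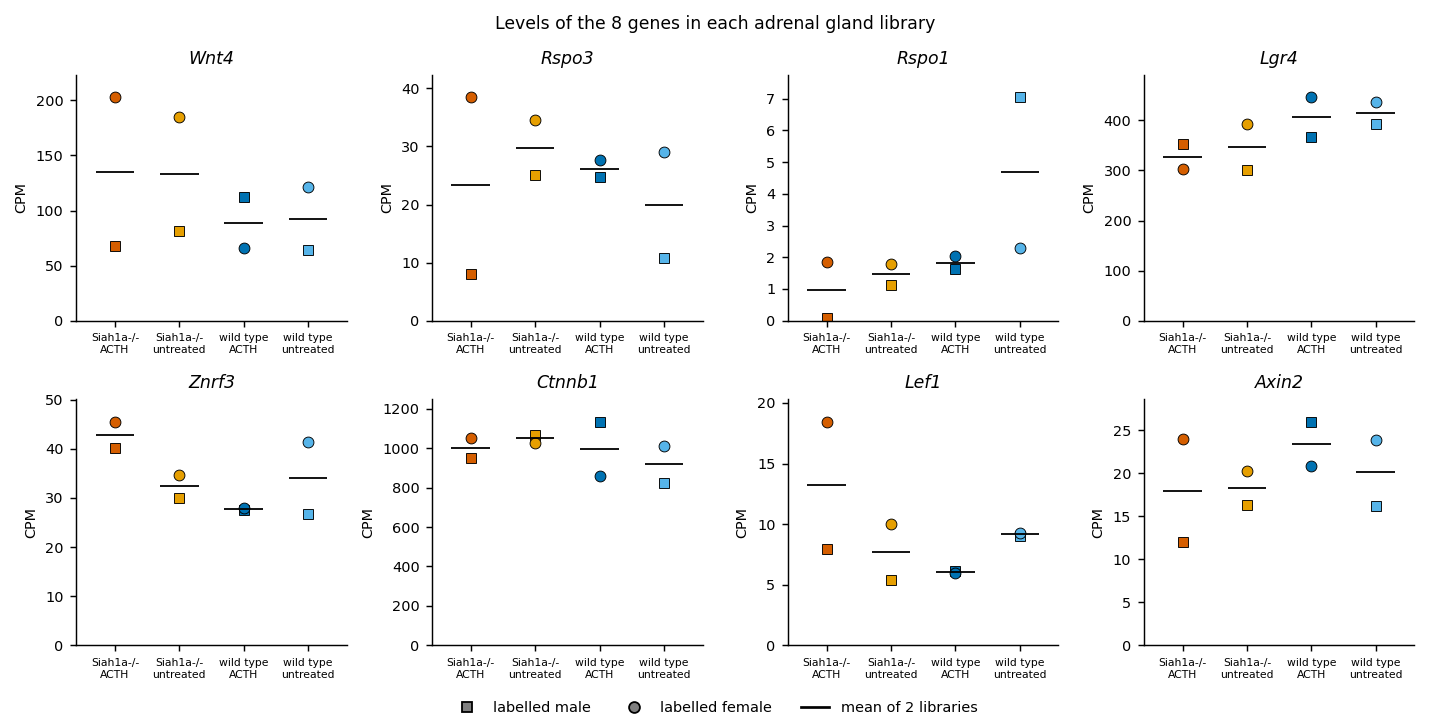
CPM (y axes, from 0) of the 8 genes in the 4 groups, 1 point per library, squares for animals labelled male, circles for animals labelled female and a line at the mean of each group's 2 libraries. Lgr4 lay at 301 to 394 CPM in the 4 knockout libraries and 368 to 447 CPM in the 4 wild-type libraries, with the highest knockout value above 2 of the wild-type values. The 2 knockout libraries of a group lay far apart for Wnt4 (67.5 and 203 CPM after ACTH).

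Wnt4 lies on chromosome 4 at 137277489 to 137299726 on the plus strand (GRCm38), and encodes the WNT ligand of the outer cortex. It was counted at 67.5 CPM (labelled male) and 203 CPM (labelled female) in knockout glands after ACTH and at 81.3 and 184.5 CPM in untreated knockout glands, against 112 and 65.8 CPM in wild-type glands after ACTH and 64.2 and 121 CPM in untreated wild-type glands. The 2 knockout glands labelled female were the highest of all 8 libraries, and the 2 labelled male lay within the wild-type range. Its mean was 134 ± 69.6 CPM in knockout and 90.8 ± 30.0 CPM in wild-type glands (SD, n = 4 each), a log2 fold change of 0.41 ± 0.35 (SE, adjusted p = 0.669, edgeR). Without the liver-marked wild-type library the log2 fold change was 0.08, and without the male-labelled wild-type gland given ACTH it was 0.83, neither past the threshold. The summed level of 5 zona glomerulosa markers was 916 and 1390 CPM in knockout glands after ACTH and 1196 and 731.5 CPM in untreated knockout glands, labelled male first. It ran from 445 to 770 CPM in wild-type glands, with all 5 detected in every library. Dab2 alone stood at 649 and 1030 CPM in knockout glands after ACTH and 808 and 538 CPM untreated. In wild-type glands Dab2 stood at 426 and 346 CPM after ACTH and 392 and 634 CPM untreated, so the ranges of the genotypes overlapped. The part of these markers in the Wnt4 values was not tested.

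Rspo3 (chromosome 10, 29452416 to 29535867, minus strand) encodes the R-spondin of the capsule. Its levels were 7.97 and 38.5 CPM in knockout glands after ACTH and 25.1 and 34.5 CPM in untreated knockout glands, against 24.8 and 27.6 CPM in wild-type glands after ACTH and 10.8 and 29.0 CPM in untreated wild-type glands, labelled male first. The lowest and the highest library of the series were thus the 2 ACTH-treated knockout glands. Knockout glands averaged 26.5 ± 13.6 CPM and wild-type glands 23.1 ± 8.35 CPM (SD, n = 4 each), with a log2 fold change of 0.13 ± 0.42 (SE, adjusted p = 0.931, edgeR). That value was -0.24 without the male-labelled untreated knockout gland and -0.19 without the kidney- and liver-marked libraries. Of the 7 capsule and fibroblast markers, Gli1, a mark of capsular cells that receive Hedgehog signals, had no counts in the 2 libraries lowest in Rspo3. In the kidney-marked library, one of these, Nr2f2 was the highest of all 8 (126 CPM) and Tcf21 stood at 6.59 CPM. In the male-labelled knockout gland given ACTH, Tcf21 too had no counts, and Lum stood at 0.640 CPM, where the remaining libraries had 8.12 to 49.7 CPM. The sum of the 7 markers was 432 to 841 CPM in knockout glands and 430 to 687 CPM in wild-type glands. Its lowest value was in the female-labelled untreated wild-type gland, where Rspo3 stood at 29.0 CPM, and its part in the Rspo3 values was not tested.

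**Figure D2:**
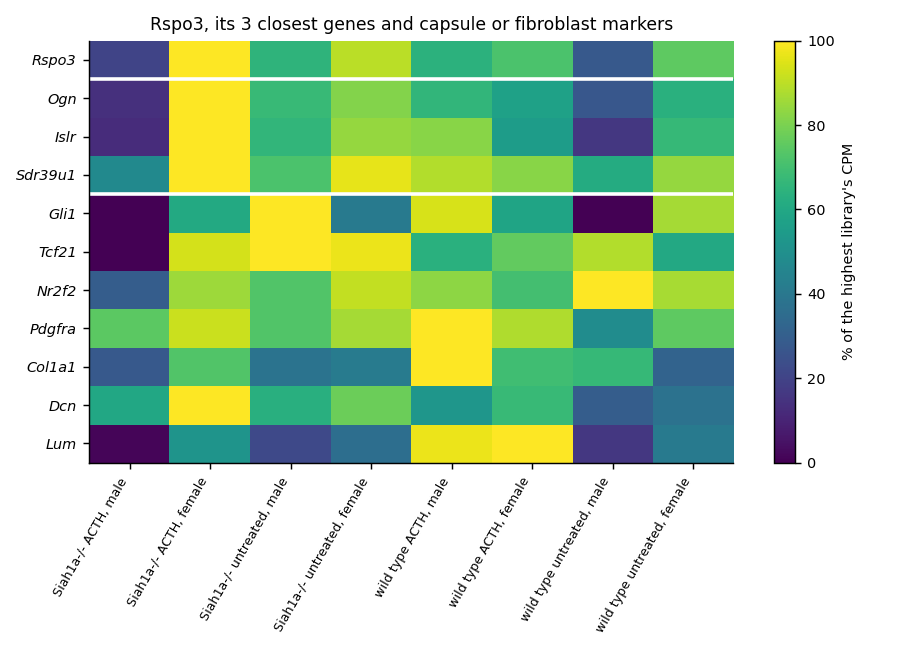
Heat map of Rspo3 (top), the 3 genes whose levels followed it most closely (middle) and 7 markers of capsule and fibroblasts (bottom) in the 8 libraries, as the percentage of each gene's highest CPM. The male-labelled knockout gland given ACTH, at the left, is dark for Rspo3 (7.97 of 38.5 CPM), Ogn (18.8 of 135 CPM) and Islr (4.2 of 33.2 CPM), and Gli1 and Tcf21 are at 0 in it.

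Rspo1 (chromosome 4, 124986430 to 125009099, plus strand), a second R-spondin, was the least counted of the 8 genes. Its raw count was 1 in the male-labelled knockout gland given ACTH and 17 to 60 in the other libraries. In CPM it stood at 0.0711 and 1.84 in knockout glands after ACTH and 1.13 and 1.79 in untreated knockout glands, against 1.63 and 2.02 in wild-type glands after ACTH and 7.06 and 2.30 in untreated wild-type glands. The value of 7.06 CPM belongs to the kidney-marked library, and all others lay at or below 2.30 CPM. The log2 fold change was -1.59 ± 1.21 in knockout over wild-type glands (SE, adjusted p = 0.631, edgeR). The knockout value was lower in 4 of 4 pairs matched for treatment and sex label. The log2 ratios were -3.19 and -0.13 after ACTH and -2.52 and -0.34 untreated, labelled male first. The untreated pair labelled male is not matched for sex by its transcripts. The share of all genes with 4 of 4 pairs in the same direction was not computed. In untreated glands alone the log2 fold change was -1.91 ± 1.80 (SE, adjusted p = 0.892, edgeR), and 0.13 without the kidney-marked library. In the average over treatments it was -0.94 without that library and -0.91 without the male-labelled knockout gland given ACTH. The part of the kidney transcripts in the Rspo1 values was not tested beyond that.

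Lgr4 (chromosome 2, 109917647 to 110014257, plus strand) encodes an LGR receptor that binds R-spondins. It was measured at 352 and 302.5 CPM in knockout glands after ACTH and 301 and 394 CPM in untreated knockout glands, against 367.5 and 447 CPM in wild-type glands after ACTH and 393 and 437 CPM in untreated wild-type glands. The knockout value was the lower one in 4 of 4 matched pairs, although the highest knockout library lay above 2 of the wild-type libraries. The untreated pair labelled male holds the kidney-marked library and is not matched for sex by its transcripts. How often 4 of 4 pairs go in the same direction over all genes was not computed. The means were 337 ± 44.3 CPM in knockout and 411 ± 37.2 CPM in wild-type glands (SD, n = 4 each). The log2 fold change was -0.28 ± 0.14 (SE, unadjusted p = 0.0838, adjusted p = 0.443, edgeR), the smallest p of the 8 members in this comparison, and it stayed between -0.38 and -0.20 when each library was left out in turn. The glands also differed in the summed level of 3 markers of the X-zone of the cortex (Akr1c18, Pik3c2g and Thrb). That sum was 171.5 and 666 CPM in knockout glands after ACTH and 1226 and 7442 CPM in untreated knockout glands, labelled male first. In wild-type glands it ran from 3516 to 10020 CPM, and its part in the Lgr4 values was not tested.

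Znrf3 (chromosome 11, 5276324 to 5444847, minus strand) encodes the ubiquitin ligase that removes Frizzled receptors and is itself known as a target of the pathway. It stood at 40.1 and 45.5 CPM in knockout glands after ACTH and 30.0 and 34.7 CPM in untreated knockout glands, against 27.5 and 27.9 CPM in wild-type glands after ACTH and 26.8 and 41.4 CPM in untreated wild-type glands. Both ACTH-treated knockout glands lay above both ACTH-treated wild-type glands, whose values nearly coincided. Ranges of these groups of 2 did not overlap for 44.2% of all genes. The log2 fold change after ACTH was 0.62 ± 0.29 (SE, unadjusted p = 0.0671, adjusted p = 0.625, edgeR), in a comparison where edgeR called 1 of 15361 genes (0.00651%). In untreated glands it was -0.06 ± 0.29 (SE, adjusted p = 0.987, edgeR), with 0% of genes called. The difference between these effects of genotype, the interaction, was 0.68 ± 0.40 (SE, unadjusted p = 0.137, adjusted p = 1, edgeR) and did not pass.

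The authors' estimated counts divide Znrf3 between a pair of transcripts. One (NM_001080924) starts at the upstream first exon, chr11:5444388-5444847, and codes for 2739 bases, and the other (NM_001290501) starts at an internal exon, chr11:5381569-5381740, and codes for 2427 bases. The internal-start transcript took 16.1% and 82.5% of the gene's count in knockout glands after ACTH and 29.6% and 13.2% in untreated knockout glands. In wild-type glands it took 77.0% and 91.8% after ACTH and 99.99% and 78.2% untreated. Of the knockout libraries 3 were therefore below every wild-type library, and the female-labelled knockout gland given ACTH was within the wild-type range. In a fit over 22366 transcripts, in which edgeR called 1 (0.00447%), the upstream-start transcript had a log2 fold change of 2.40 ± 1.23 (SE, unadjusted p = 0.0915, adjusted p = 0.586) and the internal-start transcript one of -1.15 ± 0.65 (SE, adjusted p = 0.624). With each library left out in turn these ran from 1.77 to 3.61 and from -2.07 to -0.75, none past the threshold. The internal-start transcript was at -2.07 without the female-labelled knockout gland given ACTH and at -0.75 without the female-labelled untreated knockout gland, and the upstream-start transcript was at 3.61 without the female-labelled untreated wild-type gland. Without the kidney- and liver-marked libraries the upstream-start transcript was at 1.56. These values rest on how the counting divided reads that both transcripts share, and that fit was chosen after the shares had been seen.

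Ctnnb1 (chromosome 9, 120929216 to 120960507, plus strand) encodes β-catenin, the transducer of the pathway. Its levels were 948 and 1053 CPM in knockout glands after ACTH and 1066 and 1028 CPM in untreated knockout glands, against 1134 and 856 CPM in wild-type glands after ACTH and 821 and 1012 CPM in untreated wild-type glands. The knockout values lay inside the wild-type range in 4 of 4 libraries. The log2 fold change of 0.10 ± 0.16 (SE, adjusted p = 0.828, edgeR) was the smallest in size among the 8 members, and it was -0.07 without the kidney- and liver-marked libraries. Of its 2 transcripts, whose annotated first exons overlap, NM_001165902 took 84.1% to 92.9% of the count in every library. β-catenin is regulated mainly at the level of the protein, which was not measured here.

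Lef1 (chromosome 3, 131110471 to 131224356, plus strand) encodes a DNA-binding partner of β-catenin. It stood at 7.97 and 18.5 CPM in knockout glands after ACTH and 5.38 and 9.99 CPM in untreated knockout glands, against 6.12 and 5.997 CPM in wild-type glands after ACTH and 9.06 and 9.30 CPM in untreated wild-type glands. In both pairs of knockout glands the ACTH-treated library was the higher one, and in both pairs of wild-type glands it was the lower one. The wild-type pair labelled male is not matched for sex by its transcripts. The log2 fold change of ACTH over untreated was 0.75 ± 0.63 in knockout glands (SE, adjusted p = 0.999, edgeR) and -0.59 ± 0.63 in wild-type glands (SE, adjusted p = 1, edgeR), comparisons in which edgeR called 0% of genes. The interaction, 1.34 ± 0.89 (SE, unadjusted p = 0.174, adjusted p = 1, edgeR), did not pass, and it was 0.27 without the kidney- and liver-marked libraries. Over both treatments the log2 fold change of knockout over wild-type glands was 0.34 ± 0.49 (SE, adjusted p = 0.806, edgeR), and 0.02 without the female-labelled knockout gland given ACTH.

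The Lef1 count, too, was divided between transcript starts. The transcript that starts inside the gene (NM_001276403, first exon chr3:131112797-131112820, coding length 993 bases) is one of a form known to code for a LEF1 protein without the part that binds β-catenin. The other transcripts start at chr3:131110471 and have coding lengths of 1152 and 1191 bases. The internal-start transcript took 21.4% and 66.4% of the Lef1 count in knockout glands after ACTH and 100% and 79.2% in untreated knockout glands, against 69.9% and 65.5% in wild-type glands after ACTH and 100% and 35.4% in untreated wild-type glands. The shares of the genotypes overlapped over most of their range, and each rests on 77 to 241 counts.

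**Figure D3:**
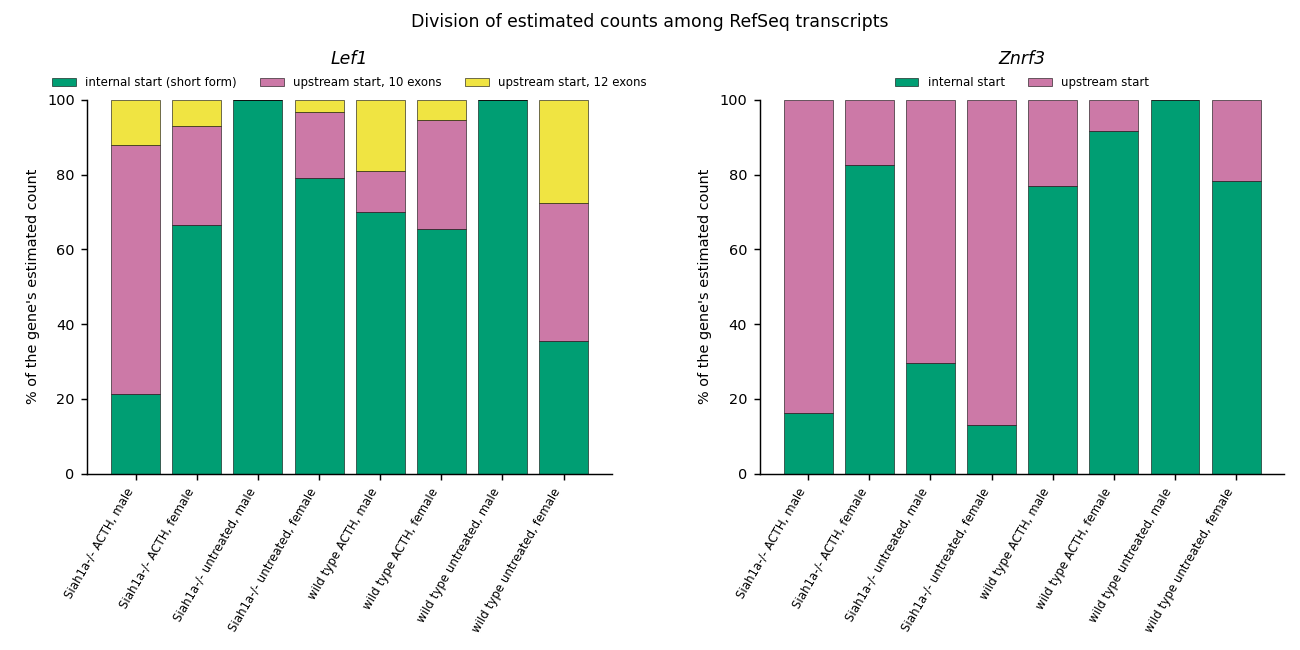
Percentage of the estimated count of Lef1 (left) and Znrf3 (right) that the authors' counting gave to each RefSeq transcript, 1 bar per library. The internal-start transcript of Znrf3 takes 13.2% to 82.5% in the 4 knockout libraries and 77.0% to 99.99% in the 4 wild-type libraries, while that of Lef1 takes 21.4% to 100% in knockout and 35.4% to 100% in wild-type libraries.

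Because Lef1 has several starts and Axin2 is the classical target of β-catenin with LEF and TCF factors, the 250 bases before these start sites were read from RefSeq promoter windows (GRCm38.p6, plus strand, 5′ to 3′), with the core motif TCAAAG, searched on both strands with no overlapping match, in capitals. The windows are those before the Axin2 start (chr11:108920099-108920348), before the upstream Lef1 start (chr3:131110047-131110296), before the internal Lef1 start (chr3:131112541-131112790) and before a Lef1 start further inside the gene (chr3:131156044-131156293), at which no transcript of the deposited tables starts. The RefSeq table puts the first 2 of these Lef1 starts at 131110297 and 131112791, a little upstream of the exon starts given above.
Axin2: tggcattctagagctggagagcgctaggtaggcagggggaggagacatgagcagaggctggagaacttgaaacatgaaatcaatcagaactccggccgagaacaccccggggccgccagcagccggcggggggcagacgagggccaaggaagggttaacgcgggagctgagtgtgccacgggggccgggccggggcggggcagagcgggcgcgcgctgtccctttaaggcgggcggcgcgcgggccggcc
Lef1 upstream: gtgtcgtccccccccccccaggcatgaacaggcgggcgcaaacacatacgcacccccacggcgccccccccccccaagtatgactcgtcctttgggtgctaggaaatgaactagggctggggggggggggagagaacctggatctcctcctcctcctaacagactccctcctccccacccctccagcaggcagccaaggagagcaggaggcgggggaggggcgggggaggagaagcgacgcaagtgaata
Lef1 internal: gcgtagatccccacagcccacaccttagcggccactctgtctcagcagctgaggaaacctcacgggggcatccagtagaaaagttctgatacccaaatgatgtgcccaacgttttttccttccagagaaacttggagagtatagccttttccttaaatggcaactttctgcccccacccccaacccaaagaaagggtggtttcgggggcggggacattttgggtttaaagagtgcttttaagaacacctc
Lef1 further inside: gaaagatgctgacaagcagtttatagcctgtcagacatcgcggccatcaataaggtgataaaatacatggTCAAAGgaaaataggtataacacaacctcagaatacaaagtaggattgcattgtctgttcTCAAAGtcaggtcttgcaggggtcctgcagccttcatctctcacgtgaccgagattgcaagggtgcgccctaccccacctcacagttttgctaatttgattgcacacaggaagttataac
The motif occurs in the last of these windows, with matches that begin 180 and 120 bases before the start site. Windows were at hand for 6 of the 8 members (10 windows), and 1 of the 10 held the motif, against 4544 of 32851 windows of the same length in all (13.8%).

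Axin2 (chromosome 11, 108920349 to 108950783, plus strand) encodes a scaffold of the complex that degrades β-catenin, and its transcript is widely used as a readout of the pathway. It stood at 12.02 and 24.0 CPM in knockout glands after ACTH and 16.3 and 20.3 CPM in untreated knockout glands, against 26.0 and 20.8 CPM in wild-type glands after ACTH and 16.2 and 23.9 CPM in untreated wild-type glands. The lowest library was the male-labelled knockout gland given ACTH, and the other 3 knockout libraries lay within the wild-type range. The log2 fold change was -0.29 ± 0.29 (SE, adjusted p = 0.719, edgeR), with the knockout value lower in 2 of 4 matched pairs. Without the male-labelled wild-type gland given ACTH it was -0.05.

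For ACTH, none of the 8 transcripts passed the test after the hour. In the average over genotypes, 7 of the 8 log2 fold changes lay between -0.05 and 0.10, with standard errors of 0.14 to 0.48. Rspo1 had -1.22 ± 1.18 (SE, adjusted p = 0.929, edgeR), and without the kidney-marked library -0.54. Adjusted p-values of the 8 members ran from 0.929 to 0.998. Lgr4 and Ctnnb1 had the smallest errors, 0.14 and 0.16, with log2 fold changes of -0.05 and 0.03. For the interaction, edgeR called 0 of 8 members and 0% of genes, and 0 members and 283 genes in all (1.84%) were at an unadjusted p under 0.05. Comparisons within a genotype or a treatment share libraries with these averages.

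**Figure D4:**
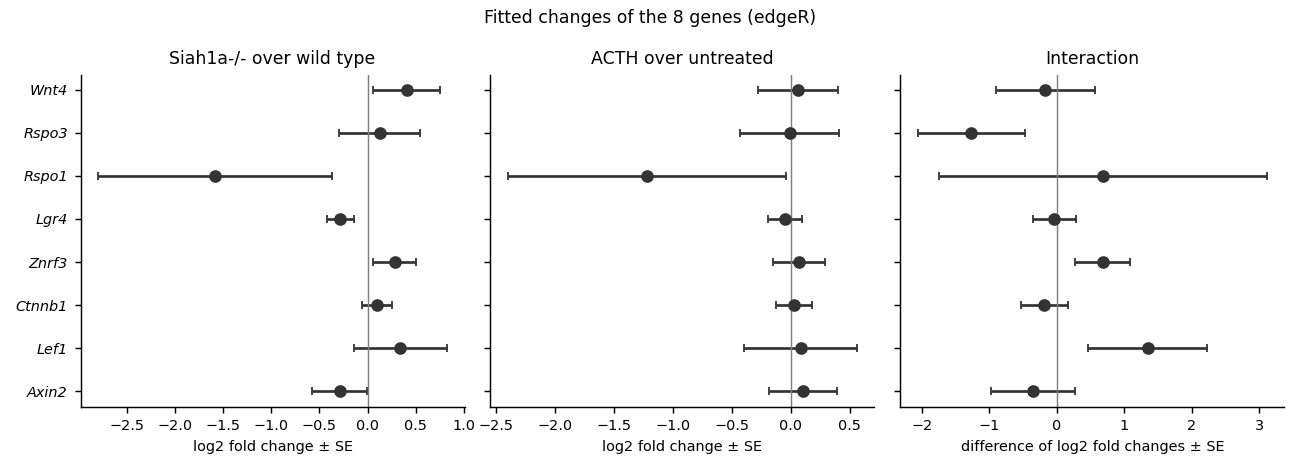
Fitted log2 fold changes of the 8 genes (points) with their standard errors (bars) for Siah1a-/- over wild-type glands, ACTH-treated over untreated glands and the interaction, on separate x axes. The error is smallest for Lgr4 and Ctnnb1 and widest for Rspo1 (1.21, 1.18 and 2.43 in the 3 panels).

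The members varied together in part. Over the 8 libraries, Pearson's r of log2 CPM was 0.82 between Rspo3 and Axin2, 0.73 between Wnt4 and Rspo3, 0.72 between Lef1 and Znrf3 and 0.69 between Wnt4 and Lef1. Lgr4 had r of -0.51 to Ctnnb1 and of -0.26 to 0.32 to the other 6. By Spearman's rank correlation the values were 0.57 for Rspo3 and Axin2, 0.79 for Wnt4 and Rspo3, 0.57 for Lef1 and Znrf3 and 0.64 for Wnt4 and Lef1. Lgr4 and Rspo1 stood at 0.62 by ranks, so the order of the pairs depended on the measure. These are descriptions over 8 libraries that share depth and cell makeup within each library, so both genes of a pair can follow the same gland. Among about 10017 well-counted genes, the ones closest to Wnt4 were Shh, the Hedgehog ligand (r = 0.96), Haus4 and Bloc1s4. Shh stood at 11.5 and 45.6 CPM in knockout glands after ACTH and 16.5 and 59.0 CPM untreated, against 20.5 and 8.29 CPM in wild-type glands after ACTH and 13.9 and 27.8 CPM untreated. Closest to Rspo3 were Ogn, a proteoglycan of connective tissue (r = 0.98), Islr (r = 0.98) and Sdr39u1 (r = 0.96). Closest to Axin2 were Pald1, Scfd2 and Smoc2 (r of 0.96 to 0.98), to Lef1 Eif4b, Mynn and Arl6ip6 (0.94 to 0.96), to Znrf3 Jade3, Sos2 and Zmym4 (0.93 to 0.94), to Lgr4 Tbc1d8, Tsku and Mtus1 (0.96 to 0.97), to Ctnnb1 Add1, the potassium channel gene Kcnk3 and Rcsd1 (0.95 to 0.97), and to Rspo1 Itpr2, Scnm1 and Mcm4 (0.98).

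The rest of the pathway gave the same count of calls. Of 89 further genes in 9 lists by role, 71 passed the filter, 13 were listed but too low and 5 were not listed, and edgeR called 0 of the 71 in each of the 7 comparisons. In knockout against wild-type glands 7 of the 71 were at an unadjusted p under 0.05, where 13.4% of all genes were. DESeq2 called 3 of the 71, where it called 6.04% of all genes. The median log2 fold change of the 71 was 0.00, with 36 above 0. Cd44, a cell surface receptor and known target of the pathway, had the smallest p. It stood at 438 and 301 CPM in knockout glands after ACTH and 372 and 223 CPM untreated, against 182 and 126 CPM in wild-type glands after ACTH and 168 and 199 CPM untreated. All knockout libraries lay above all wild-type libraries, where the ranges of the genotypes did not overlap for 8.92% of all genes. The log2 fold change of Cd44 was 0.95 ± 0.21 (SE, adjusted p = 0.146, edgeR). DESeq2 called it (adjusted p = 0.000764), and in edgeR its log2 fold change ran from 0.83 to 1.19 with each library left out in turn. At 1.19, without the female-labelled untreated wild-type gland, Cd44 passed edgeR's threshold. Tcf7, a relative of Lef1, had 1.02 ± 0.32 and the receptor gene Fzd3 0.73 ± 0.30 (SE), not past edgeR's threshold, and DESeq2 called Tcf7 (adjusted p = 0.0431).

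On the lower side, the co-receptor gene Lrp6 averaged 195 ± 39.3 CPM in knockout and 275 ± 23.6 CPM in wild-type glands (SD, n = 4 each). Its ranges did not overlap, as was so for 8.92% of all genes, and its log2 fold change was -0.50 ± 0.18 (SE, adjusted p = 0.279, edgeR). The cell cycle gene Ccnd1 had -0.90 ± 0.30 and the secreted inhibitor gene Frzb -0.59 ± 0.22 (SE), not past the threshold. With each library left out in turn, Ccnd1 ran from -1.205 to -0.61. At -1.205, without the female-labelled untreated wild-type gland, it passed edgeR's threshold. The ligand gene Wnt5b had -3.27 ± 1.17 (SE, adjusted p = 0.285, edgeR). In DESeq2 its log2 fold change was -3.30, and it was called (adjusted p = 0.0218). Its highest level, 14.4 CPM, was in the kidney-marked library, and the other wild-type libraries held 2.65 to 6.15 CPM against 0 to 2.11 CPM in knockout libraries. After ACTH, Axin1, the paralog of Axin2 in the degradation complex, was the only one of the 71 at an unadjusted p under 0.05, where 6.11% of all genes were. It stood at 66.5 and 69.5 CPM in knockout glands after ACTH and 36.3 and 30.0 CPM untreated, and at 51.1 and 53.9 CPM in wild-type glands after ACTH and 26.0 and 42.8 CPM untreated. Every ACTH library lay above every untreated library, where the ranges of the treatments did not overlap for 3.89% of all genes. The log2 fold change of Axin1 was 0.83 and did not pass (unadjusted p = 0.00449, edgeR). The list of SIAH genes and of partners through which SIAH1 is known to act on β-catenin, among them Cacybp with 0.34 ± 0.18 (SE, adjusted p = 0.451, edgeR) in knockout over wild-type glands, gave 0 calls of 6 tested.

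**Figure D5:**
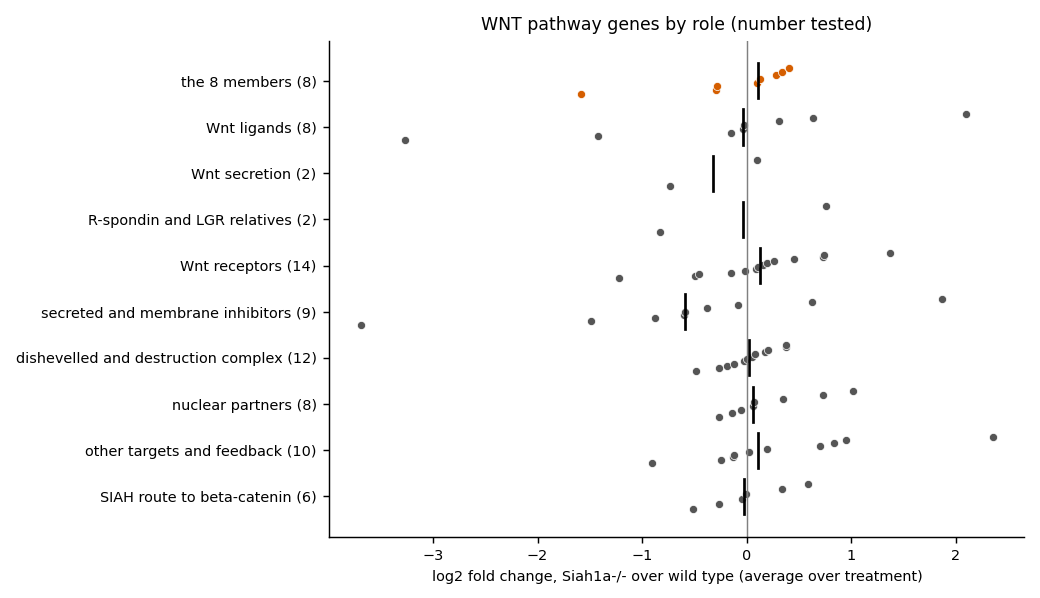
Log2 fold changes of Siah1a-/- over wild-type glands (x axis) for the 8 members (top row, orange) and the 71 other pathway genes by role (grey), 1 point per gene, with each list's median as a black bar and the number tested in brackets. None is past edgeR's threshold, and the points lie on both sides of 0 in each list.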

How the data were processed

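RNA of 8 adrenal glands was made into directional libraries and sequenced as single reads of 75 bases on a NextSeq 500, per the labels' protocols. The submitters' processing notes name FastQC (0.11), TopHat2 (2.0.13), Bowtie2 (2.2.5.0), Partek (6.6) and mm10, with no settings for strand or for reads that match several places. The authors deposited, per RefSeq transcript and per the file headers, an estimated count and an RPKM value. Here the estimated counts of 28678 transcripts were summed per symbol and rounded, and RPKM were summed only to order genes by level. Counts were tested with edgeR (4.0.16, R 4.3.3): filterByExpr with a minimum count of 10, TMM factors, and quasi-likelihood F-tests in models over the 8 libraries whose terms were genotype, treatment and the labelled sex, plus an interaction for the 5 comparisons other than the averages. P-values were adjusted by Benjamini-Hochberg over all genes tested, and SE was derived from the F statistic. Replicates are separate animals by their sex labels and titles.

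DESeq2 (1.42.0), limma-voom (limma 3.58.1), RLE factors, no filter, no sex covariate, each library left out and both wild-type libraries with kidney or liver transcripts left out were alternatives. The fit over transcripts was added after seeing the data. The members and all gene lists were chosen with earlier results of these data known. The rule for naming took the 8 members and, for each member, the 3 genes with the highest r among genes with a mean log2 CPM of at least 3. From each role list it took every gene called, the 2 of highest mean CPM and the 2 of smallest unadjusted p in each average comparison. Of these pathway genes the text names only some, mainly those of small p, a choice made after their values were seen. The scripts were tested on simulated data with the same spread for every gene and no effect of sex. That test checked the code and does not measure what could be detected in these libraries. No 2 libraries agreed within sampling noise. Counts of 0 or near 0 are limited by depth. Rspo3, Rspo1, Ctnnb1, Axin2 and Lef1 overlap annotated genes on the opposite strand or on their own (GENCODE M21). Reads from the opposite strand cannot be told apart without strand. For Rspo3, Ctnnb1 and Lef1 an overlapping gene lies on the same strand, where strand would not separate the reads.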

Additional observations from a re-analysis of the deposited data

Results flagged for a closer look

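In 3 of 32 sets of 4 libraries formed by genotype or by treatment, 1 library lay far from the other 3. The rule flags about 1 set in 20 when values are independent and normally distributed. These sets share libraries and the genes vary together in part, so that rate does not hold for them. Among wild-type glands, Rspo1 was 7.06 CPM in the untreated gland whose label is male, with a gap of 0.877 of the whole range to the next library. That library also holds kidney transcripts, whose part in the value was not tested. Among ACTH-treated glands, Lef1 was 18.5 CPM in the knockout gland labelled female, with a gap of 0.842 of the range. Among wild-type glands, Znrf3 was 41.4 CPM in the untreated gland labelled female, with a gap of 0.927 of the range.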

How the results depend on the processing

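No member was called under any alternative (lowest adjusted p = 0.204, Wnt4 in Siah1a-/- over wild type after ACTH without the male-labelled wild-type gland given ACTH). Of the values computed for single genes under alternatives, 732 kept their direction and their side of the threshold, 5 passed it and 75 changed sign, and none of those that changed sign had passed the threshold. The number of genes called over the whole table depended on the tool. For Siah1a-/- over wild type on average it was 4 with edgeR, 41 with no filter, 928 with DESeq2, 108 with limma-voom, 1 with no sex covariate and 0 to 253 when each library was left out. For ACTH on average it was 3, and 8 with no filter, 122 with DESeq2, 0 with no sex covariate, 0 without the kidney- and liver-marked libraries and 0 to 23 when each library was left out. For the interaction it was 0, and 10 with DESeq2, 2 without those 2 libraries and 0 to 11 when each library was left out. Of the 71 other pathway genes DESeq2 called 3 for Siah1a-/- over wild type, and 0 to 2 were called with each library left out. Without the 2 marked libraries the sign turned for Rspo3 (-0.19) and Ctnnb1 (-0.073) in Siah1a-/- over wild type, and for Rspo1 (-3.61) and Lgr4 (0.086) in the interaction. With limma-voom it turned for Wnt4 in ACTH over untreated (-0.090) and, in the interaction, for Wnt4 (0.079) and Rspo1 (-0.87), and with no sex covariate for Wnt4 (-0.019) and Rspo3 (0.017) in ACTH over untreated and Wnt4 (0.090) in the interaction. With each library left out in turn, log2 fold changes of some members lay on both sides of 0. For Siah1a-/- over wild type on average these were Rspo3 -0.24 to 0.52 and Lef1 -0.0075 to 0.63. For ACTH over untreated on average these were Wnt4 -0.41 to 0.35, Rspo3 -0.47 to 0.36, Ctnnb1 -0.10 to 0.11, Axin2 -0.15 to 0.28, Lef1 -0.27 to 0.38, Znrf3 -0.031 to 0.25 and Lgr4 -0.13 to 0.053. For Siah1a-/- over wild type without treatment these were Rspo1 -3.01 to 0.13, Ctnnb1 -0.0070 to 0.40, Axin2 -0.24 to 0.0062, Lef1 -0.64 to 0.0019 and Znrf3 -0.30 to 0.20. For Siah1a-/- over wild type after ACTH these were Wnt4 -0.55 to 1.46, Rspo3 -1.41 to 0.18, Rspo1 -4.67 to 0.075, Ctnnb1 -0.26 to 0.29 and Axin2 -0.93 to 0.030. For ACTH in knockout glands these were Wnt4 -0.67 to 0.45, Rspo3 -1.55 to 0.048, Rspo1 -4.34 to 0.41, Ctnnb1 -0.17 to 0.031, Axin2 -0.50 to 0.30 and Lgr4 -0.33 to 0.17. For ACTH in wild-type glands these were Wnt4 -1.05 to 0.96, Rspo3 -0.053 to 1.19, Rspo1 -2.59 to 0.55, Ctnnb1 -0.16 to 0.39, Axin2 -0.23 to 0.72 and Lgr4 -0.11 to 0.054. For the interaction these were Wnt4 -1.02 to 0.99, Rspo1 -3.07 to 1.68, Ctnnb1 -0.46 to 0.090, Axin2 -0.82 to 0.14 and Lgr4 -0.31 to 0.19. The cause of these turns was not tested. No paired analysis was possible because the labels give no replicate numbers shared between groups, and labelled sex, on which the matched pairs were formed, was already a term of the models. With 2 animals a group, small changes were not detectable, and larger fitted changes did not pass either. Examples are the log2 fold changes of Rspo1 on average (-1.59) and of Lef1 after ACTH (1.02), both in Siah1a-/- over wild type. A member without a call can therefore still have changed. Counts were low for Rspo1 (1 to 60) and Lef1 (77 to 241).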
